A study of Mus musculus with 12 samples.

Results

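Oxidative phosphorylation is carried out by complexes of the inner mitochondrial membrane, and the 41 genes described here encode the subunits of complexes II, III, IV and V, with cytochrome c, that come from the nuclear genome. They were taken by symbol from the table of 21959 genes, with newer names accepted, so that Atp5pb was matched under its older name Atp5f1. All 41 were found and all 41 were among the 12384 genes with enough counts to be tested. The list holds 4 genes of complex II, 9 of complex III, 1 for cytochrome c, 12 of complex IV and 15 of complex V. The study sequenced poly-A RNA from heart ventricles of 12 male mice, 7 weeks old and fed chow. There were 6 cardiac-specific knockouts of Vps13c (Vps13c-cKO) and 6 wild-type mice (WT). The knocked-out gene encodes a protein that carries lipids between organelle membranes. The sources used here do not give the driver that restricts the knockout to the heart, nor whether WT mice carried it, so driver and knockout cannot be told apart.

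Complex II (succinate dehydrogenase) feeds electrons from succinate into the ubiquinone pool, complex III passes them to cytochrome c, and complex IV (cytochrome c oxidase) hands them to oxygen. Complexes III and IV pump protons, and complex V (ATP synthase) uses their return flow to make ATP. Complex II is encoded wholly in the nucleus, while complexes III, IV and V each combine nuclear subunits with a few encoded in mitochondrial DNA. The heart relies on this system for most of its ATP, and cardiac and skeletal muscle carry their own isoforms of some complex IV subunits.

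Libraries held 12484523 to 14188716 gene counts in Vps13c-cKO and 13348018 to 15562942 in WT. Levels are given in CPM, read counts scaled to library size with TMM factors. Each log2 fold change is Vps13c-cKO over WT with its standard error. A gene was called where its p from the edgeR quasi-likelihood test, adjusted by the Benjamini-Hochberg method over all 12384 genes, was under 0.05. Vps13c was at 18.2 ± 1.58 CPM in Vps13c-cKO and 61.9 ± 4.85 CPM in WT (SD, n = 6 each), and every Vps13c-cKO library lay below every WT library. The 12 cardiomyocyte markers were abundant in all libraries, and the summed level of 4 atrial markers was at most 2.61 CPM in all but the library of WT mouse 4, where it was 68.8 CPM. Without WT mouse 4, 9 of the 41 subunit genes were called lower, against 11 with all mice. Leaving out each single mouse in turn gave 8 to 13.

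Where a subunit gene changed, it was lower in the knockout, by small amounts. Of the 41 genes, 11 were called lower and 0 higher, against 5.1% of all tested genes called lower and 5.65% called higher. The 11 were Sdha and Sdhc of complex II, Uqcrc1 and Uqcrc2 of complex III, Cox6a2 and Cox7b of complex IV, and Atp5a1, Atp5b, Atp5c1, Atp5j and Atp5pb of complex V. The log2 fold change was below 0 for 39 of the 41, with a median of -0.09 and a range of -0.35 to 0.05, while the median over all tested genes was 2.75e-05. At an unadjusted p under 0.05 there were 20 of the 41 (48.8%), against 23.8% of all tested genes. For 6 of the 41 every Vps13c-cKO mouse lay below every WT mouse, which was so for 2.18% of all tested genes, and for 0 did every Vps13c-cKO mouse lie above (2.75% of all tested genes). Among the 2592 tested genes whose WT level fell between the 10th and 90th percentile of the subunit genes, 304 were lower and 188 higher, with a median log2 fold change of -0.01. Of these 2592 genes of like level, 917 had an unadjusted p under 0.05. Every Vps13c-cKO mouse lay below every WT mouse for 147 of them, and above for 96.

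**Figure D1:**
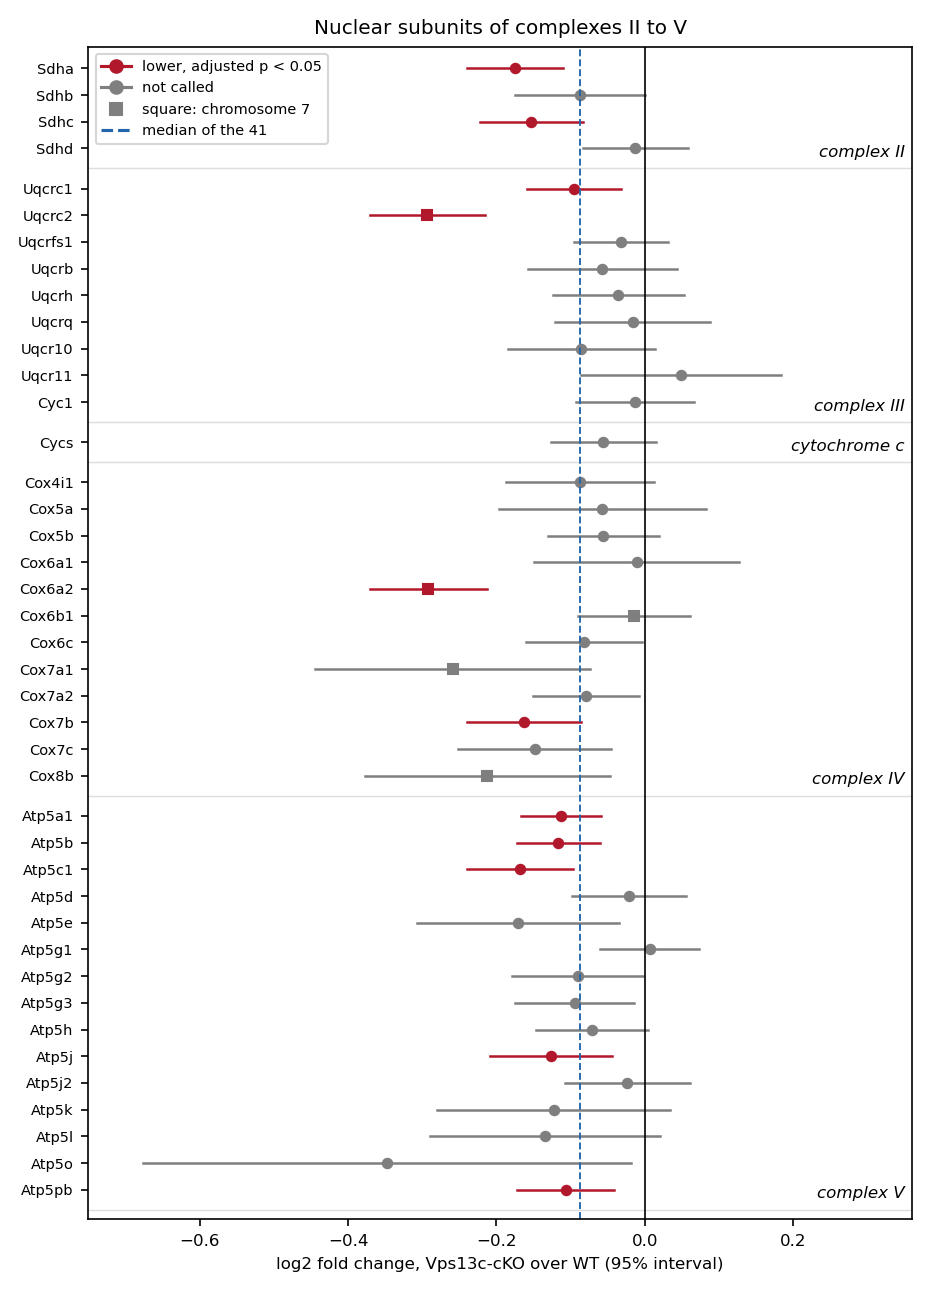
Log2 fold change of each of the 41 subunit genes, Vps13c-cKO over WT, on the horizontal axis, with its 95% interval. Genes run down the page by complex, red marks the 11 called lower, squares mark chromosome 7 and the dashed line is the median of the 41, -0.09. All but Uqcr11 and Atp5g1 lie left of 0.

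The heart is a mixture of cells, and in bulk tissue fewer cells of a type and less RNA per cell cannot be told apart. Some markers of cardiomyocytes, the cells richest in mitochondria, were lower too. Of 12 such markers 4 were lower and 0 higher (Tnnt2 -0.13 ± 0.04, Tnni3 -0.22 ± 0.03, Atp2a2 -0.20 ± 0.03 and Myl2 -0.13 ± 0.03 in log2 fold change), with a median of -0.08 over the 12. Their summed level lay between 76219 and 82976 CPM in Vps13c-cKO and between 80366 and 87737 CPM in WT. When libraries were scaled to these 12 markers in place of TMM, a setting added after the data were seen, Uqcrc2 and Cox6a2 kept their calls, the calls of the other 9 genes were lost, Atp5g1 was called higher and 19 of the 41 had a log2 fold change below 0. That scaling adds nearly the same amount to every gene: it moved each of the 41 by 0.09 and put the median over all tested genes at 0.09.

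The start regions of the genes were read from RefSeq promoters of the build GRCm38.p6, which span 250 bases before to 50 bases after the annotated start. An entry was matched for 32 of the 41 genes, 7 of them called lower. Short motifs of 4 factors known to act on respiratory genes were searched on both strands. The NRF1 core, whose letters are the capitals in the Uqcrc1 sequence below, was found in 4 of the 32 and in 0.98% of all 27025 promoters. The ETS and GABP core CCGGAAG was found in 10 of the 32 (31.2%) against 9.12% of all, the extended ERR site TCAAGGTCA in 2 (6.2%) against 0.41%, and the YY1 core AAGATGGC in 2 (6.2%) against 2.88%. The ETS and GABP core lay in 0 of the 7 lower genes with an entry and in 10 of the other 25. Only the first listed entry of each gene was searched, and Atp5c1 and Atp5j, both lower, and Atp5d have 2. The lower genes Sdhc, Uqcrc2, Cox6a2 and Atp5a1 had no entry, so these counts cannot show whether lower and other genes differ. The sequences below were chosen to show each motif in place, as its letters or their reverse complement, and a match of letters is a description, not a binding site. Uqcrc1 (chr9:108936398-108936697, plus strand; NRF1 core in capitals) and Atp5pb (chr3:105959214-105959513, minus strand; YY1 core in capitals) were both lower in the knockout. Sdhd (chr9:50603800-50604099, minus strand; ETS and GABP core, then extended ERR site in capitals) and Cox6a1 (chr5:115348909-115349208, minus strand; NRF1 core, then ETS and GABP core in capitals) were not called.
Uqcrc1: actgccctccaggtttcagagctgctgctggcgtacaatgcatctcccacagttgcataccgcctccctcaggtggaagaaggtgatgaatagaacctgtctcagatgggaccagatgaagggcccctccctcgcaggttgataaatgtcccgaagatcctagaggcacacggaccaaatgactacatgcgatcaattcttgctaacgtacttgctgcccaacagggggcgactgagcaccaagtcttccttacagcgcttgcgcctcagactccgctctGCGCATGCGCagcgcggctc
Atp5pb: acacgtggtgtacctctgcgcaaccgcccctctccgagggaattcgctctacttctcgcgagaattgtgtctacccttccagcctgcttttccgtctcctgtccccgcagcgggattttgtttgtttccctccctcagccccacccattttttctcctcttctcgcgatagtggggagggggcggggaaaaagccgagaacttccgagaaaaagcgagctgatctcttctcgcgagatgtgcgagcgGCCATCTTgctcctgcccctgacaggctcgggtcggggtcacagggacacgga
Sdhd: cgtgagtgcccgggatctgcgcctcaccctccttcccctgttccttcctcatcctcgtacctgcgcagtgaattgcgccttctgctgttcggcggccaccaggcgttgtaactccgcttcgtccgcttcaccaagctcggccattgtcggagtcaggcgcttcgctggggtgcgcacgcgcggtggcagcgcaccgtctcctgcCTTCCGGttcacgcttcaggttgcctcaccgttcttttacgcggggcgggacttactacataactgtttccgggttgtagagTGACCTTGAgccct
Cox6a1: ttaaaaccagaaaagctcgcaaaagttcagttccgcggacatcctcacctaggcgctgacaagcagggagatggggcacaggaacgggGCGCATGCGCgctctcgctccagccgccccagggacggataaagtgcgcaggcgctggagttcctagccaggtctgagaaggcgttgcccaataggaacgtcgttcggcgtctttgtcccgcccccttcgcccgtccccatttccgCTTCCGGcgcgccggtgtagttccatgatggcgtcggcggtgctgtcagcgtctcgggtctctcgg

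In complex II, 2 of 4 subunit genes were lower, 1 that carries out catalysis and 1 that anchors the complex. Sdha (ENSMUSG00000021577), the flavoprotein that oxidises succinate, lay between 1319 and 1393 CPM (median 1373) in Vps13c-cKO and between 1467 and 1606 CPM (median 1550.1) in WT. The groups of Sdha did not overlap, and the knockout mean was 88.6% of the WT mean. Sdha fell by 0.18 ± 0.03 on the log2 scale (SE, adjusted p = 0.000632). Sdhc (ENSMUSG00000058076), a membrane anchor that helps form the ubiquinone site, lay between 325 and 352 CPM (median 335) in Vps13c-cKO and between 363 and 399 CPM (median 374) in WT. Here too all 6 knockout mice were below all 6 WT mice. Sdhc fell by 0.15 ± 0.03 (adjusted p = 0.0043). The iron-sulfur subunit gene Sdhb was at -0.09 ± 0.04 (adjusted p = 0.214; 95% interval -0.18 to 0.00). It passed the threshold in 1 of the 12 runs that left out 1 mouse, without WT mouse 3 (-0.13, adjusted p = 0.025). Its adjusted p reached 0.364 in the others. Sdhd, the other membrane anchor and partner of Sdhc, was at -0.01 ± 0.03 (adjusted p = 0.875; 95% interval -0.08 to 0.06), with 303 ± 11.4 CPM in Vps13c-cKO and 305 ± 9.18 CPM in WT. The complex held 0.357% of all nuclear-gene counts in Vps13c-cKO and 0.385% in WT.

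In complex III the lower genes were the 2 core proteins, and the subunits that carry electrons were not called. Uqcrc2 (ENSMUSG00000030884), core protein 2, lay between 529.9 and 609 CPM (median 567) in Vps13c-cKO and between 659 and 748 CPM (median 692) in WT. The groups did not overlap, and the difference was the largest in size among the 11 lower genes, at 81.6% of the WT mean. Uqcrc2 fell by 0.29 ± 0.04 on the log2 scale (adjusted p = 1.89e-05). Its exons overlap Pdzd9 on the other strand over 19.7% of their length, but Pdzd9 had 2 to 13 counts a library in Vps13c-cKO and 2 to 8 in WT, while Uqcrc2 had 7079 to 8291 counts in Vps13c-cKO and 9036 to 10702 in WT. Uqcrc1 (ENSMUSG00000025651), core protein 1, lay between 588 and 633 CPM (median 618) in Vps13c-cKO and between 626 and 675 CPM (median 659.9) in WT. The groups of Uqcrc1 overlapped and its fall of 0.10 ± 0.03 sat at the edge of the threshold (adjusted p = 0.0498). Leaving out single mice gave Uqcrc1 adjusted p values of 0.0296 to 0.12, and the call held only without Vps13c-cKO mouse 6 or WT mouse 3.

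None of the remaining 7 complex III genes was called. Uqcrfs1, the Rieske iron-sulfur protein, was at -0.03 ± 0.03 (95% interval -0.10 to 0.03), and Cyc1, which carries the haem of cytochrome c1, at -0.01 ± 0.04 (95% interval -0.09 to 0.07). Uqcrh, the hinge protein that docks cytochrome c, was at -0.04 ± 0.04. Uqcr10, with a 95% interval of -0.18 to 0.01, had a log2 fold change almost as large in size as that of Uqcrc1. The small subunits Uqcrb, Uqcrq, Uqcr10 and Uqcr11 were at -0.06 ± 0.05, -0.02 ± 0.05, -0.09 ± 0.05 and 0.05 ± 0.06. Uqcr11 had the highest log2 fold change of the 41 genes, with levels of 114 ± 9.80 CPM in Vps13c-cKO and 110.2 ± 12.0 CPM in WT and an adjusted p of 0.713. Cycs, cytochrome c itself, was at -0.06 ± 0.03 (adjusted p = 0.345), with 707 ± 23.7 CPM in Vps13c-cKO and 735 ± 30.5 CPM in WT. Uqcrb, Uqcr11 and Cycs have close copies elsewhere in the genome, so their counts are less certain.

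In complex IV, 2 of 12 genes were lower, the muscle isoform Cox6a2 and the small subunit Cox7b. Cox6a2 (ENSMUSG00000030785), the heart and skeletal muscle form of subunit VIa, lay between 434 and 476 CPM (median 439) in Vps13c-cKO and between 510.4 and 583 CPM (median 547) in WT. No knockout mouse reached the lowest WT mouse, and the knockout mean was 81.7% of the WT mean. Cox6a2 fell by 0.29 ± 0.04 on the log2 scale (adjusted p = 2.41e-05). Its exons overlap Itgad on the other strand over 10.3% of their length, where Itgad had 8 to 23 counts a library in Vps13c-cKO and 1 to 6 in WT, while Cox6a2 had 5464 to 6386 counts in Vps13c-cKO and 6892 to 8410 in WT. Cox7b (ENSMUSG00000031231), encoded on the X chromosome and needed in human cells for assembly of the complex, lay between 358 and 389 CPM (median 379) in Vps13c-cKO and between 385 and 451 CPM (median 420.0) in WT. The lowest WT mouse of Cox7b lay within the knockout range, and Cox7b fell by 0.16 ± 0.04 (adjusted p = 0.00543). Cox7b has 2 close copies, so its counts are less certain.

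The other 10 subunit genes of complex IV did not pass the threshold. Cox4i1, which regulates the enzyme in response to ATP, was at -0.09 ± 0.05 (adjusted p = 0.277). Cox5a and Cox5b, which lie on the matrix side, were at -0.06 ± 0.07 and -0.06 ± 0.04 (adjusted p = 0.669 and 0.381). Cox6b1, a subunit of the face where cytochrome c docks, was at -0.01 ± 0.04, with a 95% interval of -0.09 to 0.06. Cox6c was at -0.08 ± 0.04 (adjusted p = 0.19). Cox7c was at -0.15 ± 0.05 and missed the threshold narrowly (adjusted p = 0.0599). The muscle isoform genes Cox7a1 and Cox8b had wide errors, at -0.26 ± 0.09 (adjusted p = 0.0679) and -0.21 ± 0.08 (adjusted p = 0.0959). Without Vps13c-cKO mouse 5, Cox7a1, Cox7c and Cox8b passed the threshold, at -0.30, -0.17 and -0.28 on the log2 scale. Without WT mouse 1, Cox7c and Cox8b passed, at -0.18 and -0.25, and without WT mouse 3, Cox7a1 passed, at -0.33. Each of these 3 genes passed in only 2 of the 12 runs that left out 1 mouse. In the other runs the adjusted p reached 0.157 for Cox7a1, 0.144 for Cox7c and 0.209 for Cox8b.

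In complex V the lower genes were 3 subunits of the catalytic head and rotor and 2 of the stalk that holds the head in place. Atp5b (ENSMUSG00000025393), the catalytic beta subunit, lay between 3611 and 3778 CPM (median 3699) in Vps13c-cKO and between 3894 and 4194 CPM (median 3994) in WT. Atp5a1 (ENSMUSG00000025428), the alpha subunit that alternates with beta in the head, lay between 3501 and 3592 CPM (median 3516) in Vps13c-cKO and between 3694 and 3926 CPM (median 3809) in WT. In both genes the groups did not overlap, and the spread within the knockout group was narrower than that within WT. Atp5b fell by 0.12 ± 0.03 on the log2 scale (adjusted p = 0.00687) and Atp5a1 by 0.11 ± 0.03 (adjusted p = 0.00633). Atp5c1 (ENSMUSG00000025781), the gamma subunit that turns inside the head, lay between 879 and 938 CPM (median 893) in Vps13c-cKO and between 920.1 and 1060.2 CPM (median 1016) in WT. Only the lowest WT mouse of Atp5c1 came within the knockout range, and Atp5c1 fell by 0.17 ± 0.03 (adjusted p = 0.00249). Per kilobase of principal transcript, Atp5b had the highest level of the 41, with mean CPM per kilobase of 1932 in Vps13c-cKO and 2095 in WT, and Atp5a1 was next, with 1429 in Vps13c-cKO and 1545 in WT.

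The calls of both lower stalk genes were lost on leaving out single mice. Atp5pb (ENSMUSG00000000563), the b subunit of the peripheral stalk, lay between 802 and 842 CPM (median 809) in Vps13c-cKO and between 838 and 933 CPM (median 877) in WT. Atp5j (ENSMUSG00000022890), coupling factor 6 of the same stalk, lay between 278 and 306 CPM (median 291) in Vps13c-cKO and between 285 and 339 CPM (median 326) in WT. The groups overlapped in both genes. Atp5pb fell by 0.11 ± 0.03 on the log2 scale (adjusted p = 0.0314), and Atp5j by 0.13 ± 0.04 (adjusted p = 0.0422). Leaving out single mice gave adjusted p values of 0.0202 to 0.0686 for Atp5pb, whose call was lost without Vps13c-cKO mouse 1, 2, 3 or 4 or WT mouse 5 or 6. The range for Atp5j was 0.00511 to 0.0992, and its call held only without Vps13c-cKO mouse 5 or WT mouse 1. Exons of Atp5j overlap Gabpa on the other strand over 12.7% of their length, and Gabpa itself had 908 to 1048 counts a library in Vps13c-cKO and 1002 to 1294 in WT. Exons of Atp5pb overlap other genes, among them Wdr77, over 8.2% of their length, and Wdr77 had 252 to 317 counts a library in Vps13c-cKO and 243 to 303 in WT. Atp5h, subunit d of the stalk, was at -0.07 ± 0.04 (adjusted p = 0.237). Atp5o, which joins the stalk to the head, had only 29 to 60 counts a library in Vps13c-cKO and 50 to 82 in WT, and its log2 fold change of -0.35 ± 0.16 is of little precision (adjusted p = 0.182). The other gene ID of that name was listed at 0 counts in every library. Exons of the ID used here overlap that other ID on the same strand over 12.3% of their length. They overlap genes on the other strand over 35.6%, and Atp5o has 1 close copy, so its level is uncertain.

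**Figure D2:**
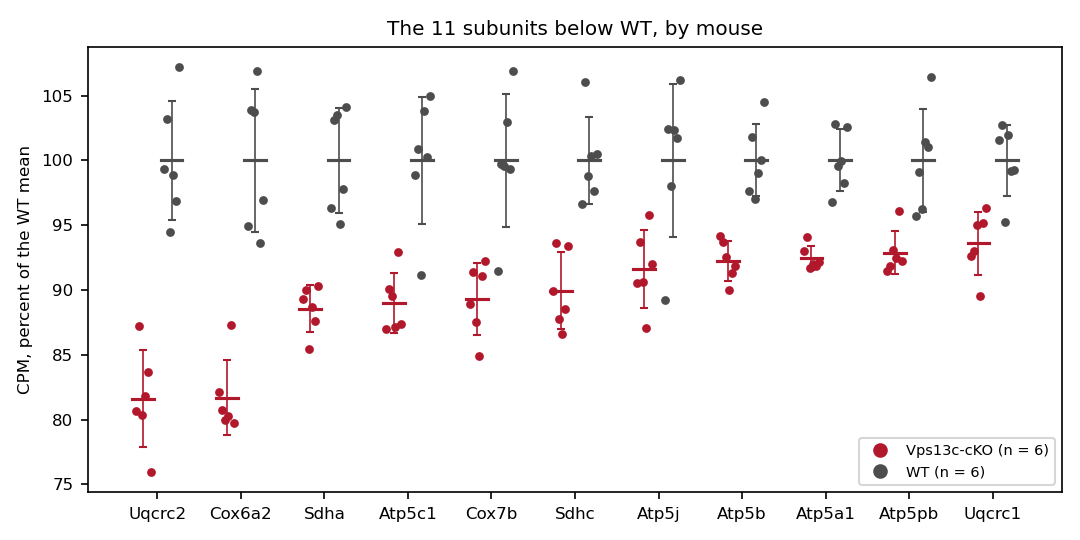
CPM of the 11 subunit genes called lower, in each mouse, as a percent of the gene's WT mean on the vertical axis, with 6 Vps13c-cKO mice in red to the left of 6 WT mice in grey for each gene. Uqcrc2 and Cox6a2 stand lowest, at knockout means of 81.6% and 81.7%, and the groups are apart for Sdha, Sdhc, Uqcrc2, Cox6a2, Atp5a1 and Atp5b.

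The remaining complex V genes were not called. Atp5d and Atp5e, the delta and epsilon subunits of the rotor, were at -0.02 ± 0.04 and -0.17 ± 0.07 (adjusted p = 0.792 and 0.104). Without WT mouse 3, Atp5e was at -0.22 with an adjusted p of 0.0166. That was the only 1 of the 12 runs leaving out 1 mouse in which Atp5e passed, and its adjusted p reached 0.231 in the others. Atp5g1, Atp5g2 and Atp5g3 encode the same mature c subunit, which forms the ring through which protons pass, and were at 0.01 ± 0.03, -0.09 ± 0.04 and -0.09 ± 0.04. Atp5g1 was the only complex V gene above 0, with 468 ± 8.85 CPM in Vps13c-cKO and 466 ± 17.7 CPM in WT and a 95% interval of -0.06 to 0.07 on the log2 scale. Atp5j2, Atp5k and Atp5l encode the membrane subunits f, e and g, of which e and g take part in pairing of ATP synthases, and were at -0.02 ± 0.04, -0.12 ± 0.08 and -0.13 ± 0.07. Atp5g1, Atp5h, Atp5k, Atp5l and Atp5pb are among the 12 of the 41 genes with a close copy elsewhere (95% identity or more over at least 80% of the coding length). Without those 12 genes, 9 of 29 were lower, 0 higher and all 29 below 0, with a median of -0.09.

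By the balance within a library, the muscle isoforms of complex IV were lower relative to their liver-type partners in 2 of 3 pairs. Cox6a2 over Cox6a1, the ratio of counts on a log2 scale, lay between 4.35 and 4.51 (median 4.39) in Vps13c-cKO and between 4.52 and 4.84 (median 4.70) in WT. The groups did not overlap, and the mean log2 ratios correspond to a count ratio of 21.3 in Vps13c-cKO and 25.9 in WT. The difference was -0.28 ± 0.06 (SE; two-sided exact permutation test over mice, p = 0.00216, the smallest p that this design can give, adjusted p = 0.0108 over the 5 ratios tested). Cox6a1 itself was at -0.01 ± 0.07, with 20.9 ± 0.939 CPM in Vps13c-cKO and 21.1 ± 2.11 CPM in WT. Cox8b lay between 66.7 and 95.6 CPM (median 72.7) in Vps13c-cKO and between 77.7 and 100.1 CPM (median 92.2) in WT, and its partner Cox8a was at 0.08 ± 0.06 (adjusted p = 0.445). For Cox8b over Cox8a the log2 ratio lay between 1.14 and 1.62 (median 1.37) in Vps13c-cKO and between 1.57 and 1.79 (median 1.72) in WT. These groups overlapped at 1 end, and the difference was -0.30 ± 0.09 (exact permutation p = 0.00866, adjusted p = 0.0216). Cox7a1 lay between 107 and 157 CPM (median 143) in Vps13c-cKO and between 125 and 189.8 CPM (median 164) in WT, and its partner Cox7a2 was at -0.08 ± 0.03 (adjusted p = 0.159). For Cox7a1 over Cox7a2 the log2 ratio lay between -0.86 and -0.34 (median -0.45) in Vps13c-cKO and between -0.64 and -0.20 (median -0.33) in WT. That difference of -0.18 ± 0.10 did not pass (exact permutation p = 0.115, adjusted p = 0.143). Without WT mouse 3, whose ratio was the lowest of its group, it was -0.24 with an adjusted p of 0.0289. Over all runs that left out 1 mouse, the adjusted p of this ratio ranged from 0.0289 to 0.271.

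All 3 muscle isoform genes lie on chromosome 7, and their partners Cox6a1, Cox7a2 and Cox8a on chromosomes 5, 9 and 19, so the isoform class and the chromosome cannot be told apart. The 5 subunit genes on chromosome 7, which are these 3 with Uqcrc2 and Cox6b1, had a median log2 fold change of -0.26, and 2 of them were called lower. These 2, Uqcrc2 and Cox6a2, were also the 2 lower genes whose calls held under cardiomyocyte marker scaling. Cox6b1, also on chromosome 7, was at -0.01 ± 0.04. Over all 955 tested genes of chromosome 7, 85 were lower and 92 higher, with a median of 0.0030. Both directions were called more often there than over all tested genes, of which 5.1% were lower and 5.65% higher. An unadjusted p under 0.05 was found for 336 of the 955, also a larger share than the 23.8% of all tested genes. The 36 subunit genes on other chromosomes had 9 lower, 34 below 0 and a median of -0.09. Among the gene copies for the c subunit, the log2 ratio of Atp5g1 over Atp5g3 averaged -0.63 ± 0.10 in Vps13c-cKO and -0.74 ± 0.05 in WT (SD, n = 6 each; exact permutation p = 0.0390, adjusted p = 0.0649). Without Vps13c-cKO mouse 2 or mouse 6 that difference was 0.12, with an adjusted p of 0.0325. Over all runs that left out 1 mouse, its adjusted p ranged from 0.0325 to 0.141. The log2 ratio of Atp5g2 over Atp5g3 averaged -3.40 ± 0.08 in Vps13c-cKO and -3.40 ± 0.06 in WT (exact permutation p = 0.913).

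**Figure D3:**
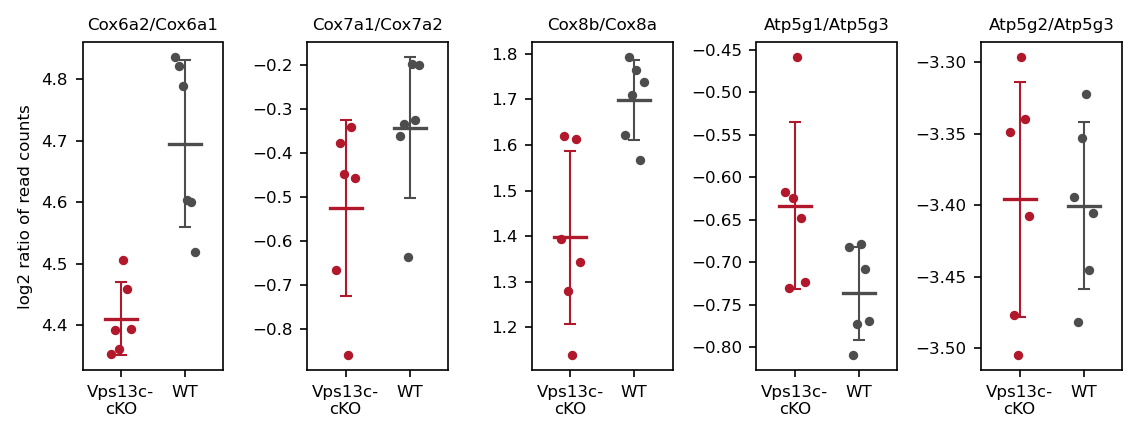
Log2 ratio of read counts for 5 pairs of subunit genes (vertical axes), 1 point a mouse, with 6 Vps13c-cKO mice left of 6 WT mice and the mean ± SD of each group as a bar. Cox6a2 over Cox6a1 shows no overlap of the groups, and Atp5g2 over Atp5g3 has a mean of -3.40 in both.

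Among genes that complete or assemble the same complexes, 2 of 44 were called, against 10.7% of all tested genes. Of 9 tested further subunits (among them Cox8a, Cox7a2l, Cox4i2, Ndufa4 and the ATPase inhibitor gene Atpif1), 0 were lower and 0 higher by edgeR, with a median log2 fold change of 0.01 and 1 gene at an unadjusted p under 0.05. Of 35 tested assembly factors, 1 was lower and 1 higher, with a median of -0.0034 and 10 genes (28.6%) at an unadjusted p under 0.05. Cox19, a small protein of the intermembrane space needed for complex IV assembly, lay between 33.8 and 44.0 CPM (median 39.2) in Vps13c-cKO and between 26.6 and 30.2 CPM (median 27.7) in WT. Every knockout mouse was above every WT mouse for Cox19, which rose by 0.48 ± 0.06 on the log2 scale (adjusted p = 9.71e-06). Lrpprc, which stabilises the mitochondrial mRNAs that encode complex IV subunits among others, averaged 229 ± 9.82 CPM in Vps13c-cKO and 251 ± 13.1 CPM in WT (SD, n = 6 each), a log2 fold change of -0.13 ± 0.04 (adjusted p = 0.0403). The call of Lrpprc was lost without Vps13c-cKO mouse 1, 3, 5 or 6 or WT mouse 2, 3, 5 or 6, where its adjusted p was 0.0503 to 0.0972. Cox10, which makes the haem precursor of complex IV, was at -0.15 ± 0.06 (adjusted p = 0.103) and the complex IV factors Higd1a and Higd2a at 0.11 ± 0.04 and 0.15 ± 0.05 (adjusted p = 0.0976 and 0.06).

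The partner subunits encoded in mitochondrial DNA did not pass the edgeR test with TMM factors in either direction. Of 5 tested, with mt-Atp8 left out by the count filter, 0 were called by edgeR, 2 had an unadjusted p under 0.05, and only mt-Co3 had a log2 fold change below 0, at -0.16 ± 0.11. The cytochrome b gene mt-Cytb was at 0.07 ± 0.03, the catalytic complex IV genes mt-Co1 and mt-Co2 at 0.05 ± 0.03 and 0.14 ± 0.08, and the proton channel gene mt-Atp6 at 0.32 ± 0.10 (adjusted p = 0.0513). Vps13c-cKO mouse 4 had 411 CPM of mt-Atp6, while the other 5 knockout mice lay between 240.1 and 277 CPM and WT mice between 203 and 289 CPM. Without Vps13c-cKO mouse 4 the log2 fold change of mt-Atp6 was 0.18 (adjusted p = 0.12), and it passed the threshold without Vps13c-cKO mouse 1 (0.36), Vps13c-cKO mouse 3 (0.35) or WT mouse 6 (0.39). In edgeR it also passed with upper-quartile factors (adjusted p = 0.0469), the replicate block (0.0297) and cardiomyocyte marker scaling (0.00519). It did not pass with limma-voom (adjusted p = 0.0533) or the DESeq2 Wald test (0.175). The summed level of the 6 mitochondrially encoded genes listed here, mt-Atp8 among them, was 179369.6 ± 5749 CPM in Vps13c-cKO and 172758.6 ± 6694 CPM in WT (SD, n = 6 each). All genes of mitochondrial DNA together, more than those listed, held 31.2% ± 0.606 of all counts in Vps13c-cKO and 30.1% ± 0.761 in WT. Poly-A capture can affect which of these transcripts are seen, and its part here was not tested. Close copies elsewhere in the genome were searched only for the 41 subunit genes, not for mitochondrially encoded genes. Leaving mitochondrially encoded genes out before scaling kept all 11 subunit calls. In complex I, which feeds electrons from NADH into the same chain, 3 of 36 nuclear subunit genes were lower and 0 higher, with a median of -0.03. Over all tested genes 5.1% were lower and 5.65% higher. The 3 lower complex I genes were Ndufs1 at -0.19 ± 0.03, Ndufc2 at -0.20 ± 0.04 and Ndufab1 at -0.30 ± 0.05.

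Summed over the 41 genes, the level lay between 20503 and 21597 CPM in Vps13c-cKO and between 21983 and 23727 CPM in WT. The sums did not overlap, and their means were 21160.9 ± 387 CPM in Vps13c-cKO and 22844.7 ± 729 CPM in WT (SD, n = 6 each). As a share of counts on nuclear genes, the 41 took 3.08% ± 0.0652 in Vps13c-cKO and 3.26% ± 0.0932 in WT. These shares just overlapped, with a highest Vps13c-cKO value of 3.1439% and a lowest WT value of 3.1437%. By complex the mean shares were 0.459% in Vps13c-cKO and 0.481% in WT for complex III, 0.451% in Vps13c-cKO and 0.485% in WT for complex IV, and 1.71% in Vps13c-cKO and 1.80% in WT for complex V. For complex III the groups overlapped, at 0.440% to 0.476% in Vps13c-cKO and 0.452% to 0.503% in WT. Those of complex IV overlapped too (0.419% to 0.478% in Vps13c-cKO and 0.454% to 0.514% in WT), while those of complex V did not. Set against the 12 cardiomyocyte markers of the same library, the subunit sum was 0.268 ± 0.010 of the marker sum in Vps13c-cKO and 0.273 ± 0.00972 in WT, and these ratios overlapped. Scaled to the markers, Uqcrc2 was at -0.20 (adjusted p = 0.000607) and Cox6a2 at -0.20 (adjusted p = 0.00163), while Atp5g1 was at 0.10 (adjusted p = 0.0395). Among markers of other cells, 4 of 7 fibroblast genes were higher (summed 1154 to 1303 CPM in Vps13c-cKO and 1023 to 1108 CPM in WT), against 5.65% of all tested genes. Every Vps13c-cKO mouse lay above every WT mouse for Col1a1, Col1a2, Col3a1 and Lum, while the groups overlapped for Pdgfra, Dcn and Tcf21. Of 5 endothelial genes 1 was lower (summed 647 to 674 CPM in Vps13c-cKO and 644 to 754 CPM in WT). Of 5 macrophage genes 1 was higher (summed 134 to 152 CPM in Vps13c-cKO and 106 to 148 CPM in WT). Of 4 tested smooth muscle and pericyte genes 2 were lower and 1 higher (summed 1006 to 1068 CPM in Vps13c-cKO and 1069.6 to 1289 CPM in WT). Of 4 fat markers only Cidea passed the count filter, and it was higher (log2 fold change 0.23 ± 0.07, adjusted p = 0.0439), while Adipoq, Plin1 and Ucp1 were below 0.5 CPM in every library. Of 5 blood genes 0 were called by edgeR, also at an unadjusted p under 0.05. The part of these cells in the subunit result was not tested.

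**Figure D4:**
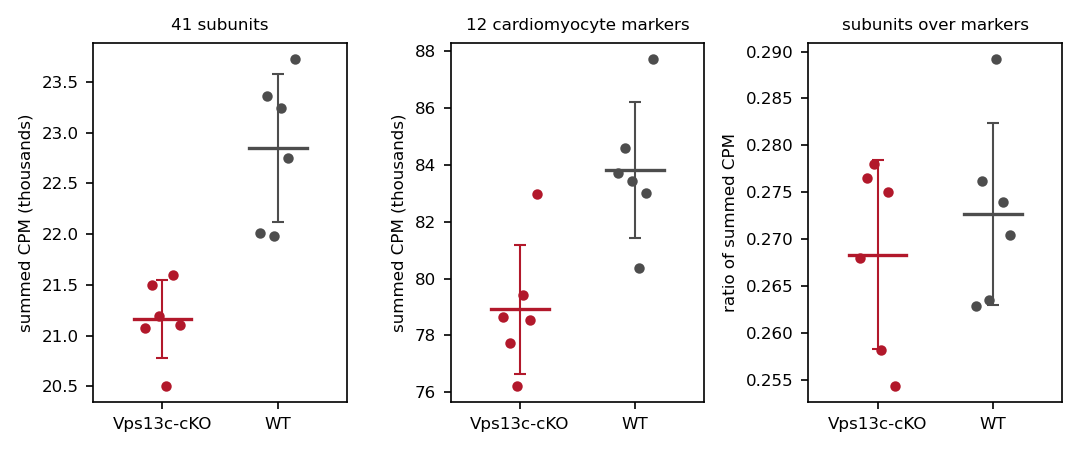
Summed CPM of the 41 subunit genes (left), of the 12 cardiomyocyte markers (middle) and the ratio of the sums (right), 1 point a mouse, Vps13c-cKO left of WT, with the mean ± SD of each group; the vertical axes do not start at 0. The subunit sums do not overlap, while the ratios do, at 0.268 ± 0.010 in Vps13c-cKO and 0.273 ± 0.00972 in WT.

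The 41 genes varied together across mice. In a principal component analysis of their log2 CPM component 1 held 66.8% of the variance and component 2 held 12.1%, against 28.2% and 9.51% over all tested genes, and all 41 loadings on component 1 had the same sign. Vps13c-cKO mice scored between -1.23 and 0.224 on it and WT mice between -0.210 and 0.901, so the groups overlapped and part of this shared variation lay between mice of 1 genotype. Vps13c-cKO mouse 4 had the lowest level of its group for 27 of the 41 genes, and WT mice 3 and 1 for 19 and 17. Without Vps13c-cKO mouse 4, 8 genes were called lower, as also without Vps13c-cKO mouse 1, 2 or 3 or WT mouse 5 or 6. Without WT mouse 3 there were 13, as also without Vps13c-cKO mouse 5. The genes with the strongest loadings were Atp5o, Cox7a1, Cox8b, Atp5k, Atp5e and Atp5l, at 0.45, 0.36, 0.30, 0.23, 0.23 and 0.22, and Atp5g1 had the weakest, at 0.01. Genes were not scaled to equal variance, so genes with noisier values, such as Atp5o with its few counts, can weigh more. The set of all tested genes also holds more genes of low level, so its shares of variance are not strictly comparable. Over the 41 genes the loading was lower for longer principal transcripts (Spearman's rho = -0.50, and -0.52 over 40 genes without Atp5o), as a description over genes that share the same libraries. The library protocol selected fragments by size, and 25 of the 41 genes have a principal transcript of at most 1000 bases. Of the 11 called genes, Cox6a2 and Atp5j fall in that range, and Cox7b lies just past it at 1001 bases.

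**Figure D5:**
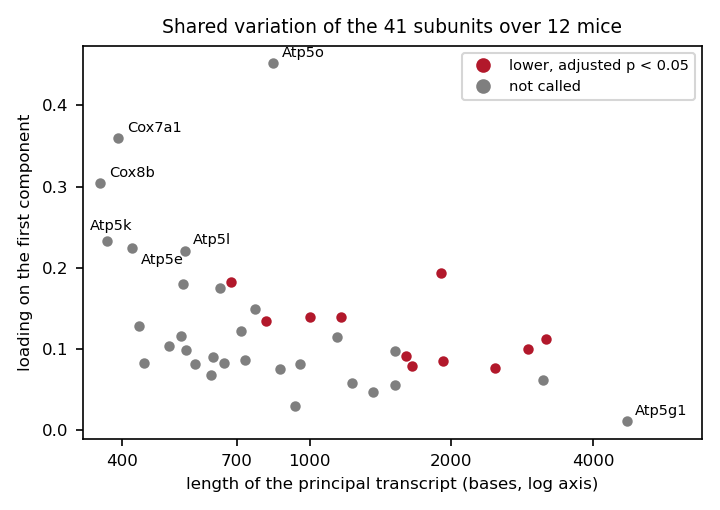
Loading of each of the 41 subunit genes on the first component of their log2 CPM over 12 mice (vertical axis) against the length of its principal transcript in bases (horizontal log axis); red marks the 11 genes called lower. Short transcripts such as Cox7a1 and Cox8b have the high loadings, and Atp5g1 the lowest.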

How the data were processed

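Ventricle RNA of 6 Vps13c-cKO and 6 WT mice was analysed, with groups and mouse numbers taken from the sample titles. Each column of the deposited table gives raw counts of reads by gene in 1 mouse, per the file headers, and the authors had not normalised them. Tools listed in the submitters' processing notes are HISAT2 2.1.0, fastp 0.22.0 and HTSeq 0.9.1, with the build GRCm39; the sources used here do not give the annotation release or the strand setting. PCR amplification used no molecular identifiers, per the labels' protocols, so duplicate reads are counted. Without the strand setting, it is not known whether reads of genes overlapping on opposite strands were told apart. Names, transcript lengths and overlaps came from GENCODE M21 (GRCm38), which named 21902 of 21959 gene IDs.

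The 41 genes and all lists were chosen with earlier results of these data known. Genes with low counts were removed with filterByExpr, 12384 were fitted with the edgeR 4.0.16 quasi-likelihood test in R 4.3.3 with TMM factors, and p-values were adjusted by the Benjamini-Hochberg method over all of them. The biological coefficient of variation was 0.0661. Isoform ratios used counts plus 0.5 and two-sided exact permutation tests over mice. The script was tested on simulated data. Every member was named whatever its value. Between mice of 1 group, chi-square per gene was 3.11 to 5.62, so none was counted as a repeat of another. Alternatives were DESeq2 1.42.0 and its size factors, upper-quartile factors, limma-voom (limma 3.58.1), other filters, libraries without mitochondrially encoded or chromosome 7 genes, the replicate number as a block, leaving out each mouse and, added after the data were seen, scaling to cardiomyocyte markers.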

Additional observations from a re-analysis of the deposited data

Results flagged for a closer look

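In 8 of 92 groups of 6 mice tested, 1 mouse stood apart from the other 5 by more than Dixon's 95% critical value, where chance alone flags about 1 group in 20. Vps13c-cKO mouse 5 was high for Cox6a2 (475.8 CPM, the nearest mouse at 447.7), for Atp5d (226.3 CPM, nearest 214.7) and for Atp5pb (842 CPM, nearest 816). Vps13c-cKO mouse 4 was low for Atp5e (84.3 CPM, nearest 100.2) and for Atp5g3 (651 CPM, nearest 725). WT mouse 1 was low for Uqcrb (153.7 CPM, nearest 181.2). WT mouse 3 was low for Cyc1 (332.6 CPM, nearest 375.8) and had the lowest log2 ratio of Cox7a1 over Cox7a2 (-0.64, nearest -0.36). Cox6a2 was lower in the knockout also with Vps13c-cKO mouse 5 in the group, and its groups did not overlap.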

How the results depend on the processing

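The count of subunit genes called lower, 11, was 10 to 11 under limma-voom, DESeq2, its size factors in edgeR, upper-quartile factors, the replicate block, a minimum mean of 5 CPM, no low-count filter and libraries without mitochondrially encoded genes, 9 without chromosome 7 genes and 8 to 13 on leaving out single mice. It was 0 higher throughout these. Scaling to cardiomyocyte markers, added after the data were seen, gave 2 lower, 1 higher and 11 assembly factors and further subunits called, against 2 in all. Of the 11 lower genes, Sdha, Sdhc, Uqcrc2, Cox6a2, Cox7b, Atp5a1, Atp5b and Atp5c1 were called in every planned setting that tested them. Uqcrc1 was called in 8 of 22 settings, Atp5j in 11 and Atp5pb in 15. Upper-quartile factors and a minimum mean of 5 CPM also ended the call of Uqcrc1. Assembly factors and further subunits called numbered 1 (Cox19) under the replicate block, where Lrpprc lost its call (adjusted p = 0.0554), and 1 to 3 on leaving out single mice.

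Mice with the same number did not deviate together (correlations of -0.0396 to 0.0618), so the number is no pairing. With it as a block, 10 genes were lower and Uqcrc1 lost its call. Paired by number, the exact sign-flip test gave -0.28 for Cox6a2 over Cox6a1 (adjusted p = 0.0781) and -0.30 for Cox8b over Cox8a (adjusted p = 0.104). With 6 pairs the smallest p of this test is higher than that of the permutation test. An adjusted p under 0.05 over the 5 ratios was hardly within its reach, so the loss of these calls tells little. With single mice left out, the ratio differences ranged from -0.32 to -0.26 for Cox6a2 over Cox6a1 and -0.35 to -0.25 for Cox8b over Cox8a. They ranged from -0.24 to -0.11 for Cox7a1 over Cox7a2, 0.068 to 0.12 for Atp5g1 over Atp5g3 and -0.015 to 0.026 for Atp5g2 over Atp5g3. For Atp5g1 over Atp5g3 the adjusted p of the permutation test was 0.0325 to 0.141 in these runs, with 0.0325 without Vps13c-cKO mouse 2 or 6. The pseudocount of 5 changed no call.

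Signs turned only in genes that were not called in the reported fit. Without filter Atp5g1 was at -0.00070. Leaving out single mice, the range was -0.0546 to 0.0097 for Uqcrq, -0.026 to 0.0042 for Sdhd, -0.051 to 0.028 for Cox6a1, -0.045 to 0.0028 for Cyc1, -0.032 to 0.0037 for Cox6b1, -0.00095 to 0.089 for Uqcr11 and -0.011 to 0.023 for Atp5g1. With cardiomyocyte scaling, Sdhb was at 0.0069, Sdhd 0.080, Uqcrfs1 0.061, Uqcrb 0.035, Uqcrh 0.058, Uqcrq 0.077, Uqcr10 0.0070, Cyc1 0.080, Cycs 0.038, Cox4i1 0.0058, Cox5a 0.036, Cox5b 0.037, Cox6a1 0.081, Cox6b1 0.079, Cox6c 0.011, Cox7a2 0.014, Atp5d 0.071, Atp5g2 0.0019, Atp5h 0.021 and Atp5j2 0.069. These 20 turns follow from the scaling itself, which raised each of the 41 genes by 0.0918 to 0.0948 and the median of all tested genes by 0.0923, and say nothing of the single genes. The cause of the turns without filter and without single mice was not tested. Atp5o had few counts, at 29 to 82 a library, and the cause of this was not tested.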
